A study of Mus musculus with 20 samples.

Results

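The genes described here are tumour necrosis factor and its immediate circuit: the ligands Tnf, Lta and Ltb, the receptors Tnfrsf1a and Tnfrsf1b, and 4 genes known for their induction by TNF, Tnfaip2, Tnfaip3, Tnfaip6 and Tnip1. They are 9 of the 22180 genes with a probe set of a single symbol, and each was read by 1 probe set. They were followed across abdominal skin of 20 mice, 1 Affymetrix array per animal, in 4 groups of 5. The groups were Zfp36 KO skin (zfp36 fl/fl K14 cre) under imiquimod, control littermate skin (zfp36 fl/fl) under imiquimod, KO skin after mock treatment and control skin after mock treatment. All groups carried the floxed alleles, and the KO groups added a Cre driven by the keratin 14 promoter, so that the deletion was aimed at keratinocytes while immune, vascular and stromal cells of the same skin kept Zfp36. Imiquimod, a Toll-like receptor agonist that sets off psoriasis-like inflammation in mouse skin, was applied for 5 days, and skin was taken 4 hours after the last application. The labels used here state neither what the mock preparation held nor the age of the mice.

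TNF is made as a membrane-bound trimer that the protease ADAM17 releases, and it signals through TNFR1 (Tnfrsf1a), present on most cells, and TNFR2 (Tnfrsf1b), found mainly on immune and endothelial cells. Receptor engagement activates NF-kB, which switches on inflammatory genes and, among them, the brakes on its own pathway. The Tnf messenger carries AU-rich elements, and tristetraprolin, the product of Zfp36, binds such elements and speeds the decay of the messenger; mice that lack Zfp36 in all tissues develop a TNF-driven inflammatory syndrome.

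Ltb, Tnf and Lta are neighbours on mouse chromosome 17. The stretches of DNA below are shown because NF-kB drives many TNF-induced genes and because matches to its consensus were unevenly spread over the members. They come from RefSeq (GRCm38.p6), lie before the annotated start of each gene, and are written 5′ to 3′ on the strand of the gene with motif matches in capitals. Searched on both strands were the NF-kB consensus GGGRNWYYCC, the AP-1 site TGANTCA and the TATA box pattern TATAAA, at any position of a window. In these patterns R is A or G, W is A or T, Y is C or T and N is any base. Sites that depart from the patterns or lie further upstream than the windows would not be found. The Tnf window, chr17:35202008-35202257 on the minus strand, held a TATAAA from 29 to 24 bases before the start and no match to the other motifs.
Tnf: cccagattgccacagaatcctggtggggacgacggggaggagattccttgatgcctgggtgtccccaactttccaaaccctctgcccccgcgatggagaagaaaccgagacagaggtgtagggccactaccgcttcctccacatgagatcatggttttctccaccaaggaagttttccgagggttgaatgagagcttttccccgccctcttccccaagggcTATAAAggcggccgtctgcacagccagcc
Tnfaip3, chr10:19015411-19015660 on the minus strand, held 2 matches to the NF-kB consensus (125 to 116 and 12 to 3 bases before the start), 1 TGANTCA and 1 TATAAA.
Tnfaip3: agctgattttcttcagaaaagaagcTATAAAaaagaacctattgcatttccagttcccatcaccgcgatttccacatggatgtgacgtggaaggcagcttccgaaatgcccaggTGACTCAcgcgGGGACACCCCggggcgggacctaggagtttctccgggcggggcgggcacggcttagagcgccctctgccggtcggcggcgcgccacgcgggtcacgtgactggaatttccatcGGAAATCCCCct
Tnip1, shown over chr11:54962977-54963008 on the minus strand, held 3 overlapping matches to the NF-kB consensus within 1 run of capitals, and Ltb, shown over chr17:35194410-35194439 on the plus strand, held 1.
Tnip1: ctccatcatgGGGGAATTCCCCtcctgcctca
Ltb: aagggtgttcGGAAAGTCCCcgggcagggg
All 9 members had a window of 250 bases, 10 windows in all with a second one for Tnfaip3. The NF-kB consensus was found in windows of 3 members, against 3.9% of all 32851 windows, TGANTCA in those of 2 members (Tnfaip3 and Tnfaip6), against 6.75%, and TATAAA in those of 3 members (Tnf, Lta and Tnfaip3), against 12.4%. The TATAAA of Lta lay 167 to 162 bases before its start and that of Tnfaip3 225 to 220, both farther from the start than that of Tnf. No match of any of these motifs was found in the windows of Tnfaip2, Tnfrsf1a and Tnfrsf1b.

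Values are log2 probe set values as deposited, and array medians lay between 4.94 and 5.04. Zfp36 itself averaged 6.40 ± 0.85 in KO imiquimod skin, against 8.0 ± 0.26 in control imiquimod skin, and 5.43 ± 1.54 in KO mock skin, against 7.46 ± 0.22 in control mock skin (SD, n = 5 each). Its single values were 5.47, 7.41, 6.12, 7.18 and 5.82 in KO imiquimod skin, against 8.04, 8.40, 7.99, 7.89 and 7.68 in control imiquimod skin, and 5.12, 6.84, 7.12, 4.61 and 3.47 in KO mock skin, against 7.28, 7.45, 7.74, 7.22 and 7.61 in control mock skin. KO imiquimod replicates 2 and 4 thus kept the most Zfp36 signal of their group, 7.41 and 7.18, the first within the range of control mock skin. Its KO arrays did not overlap with the control arrays in either treatment, but its limma adjusted p was 0.221 under imiquimod and 0.999 in mock skin. Arrays also differed in tissue make-up: the mean log2 value of 21 hair follicle markers ranged from 5.63 to 9.18 in KO imiquimod skin, 5.44 to 9.39 in control imiquimod skin, 6.01 to 10.2 in KO mock skin and 6.02 to 10.3 in control mock skin. The group medians were 5.92 in KO imiquimod skin, 6.05 in control imiquimod skin, 9.80 in KO mock skin and 10.2 in control mock skin, so hair markers were lower under imiquimod at the median of either genotype. After imiquimod 0 of the 21 passed in limma. At an unadjusted p under 0.05 were 7 in KO skin and 20 in control skin, beside 6925 and 5300 of all 22180 genes. The part of hair follicles in the member values was not tested beyond the fits with hair markers as a covariate or without the arrays most distant in them. In whole skin, fewer cells of a type and less RNA per cell cannot be told apart. Differences were tested with limma on all 20 arrays, with p-values adjusted over the 22180 genes and called under 0.05.

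**Figure D1:**
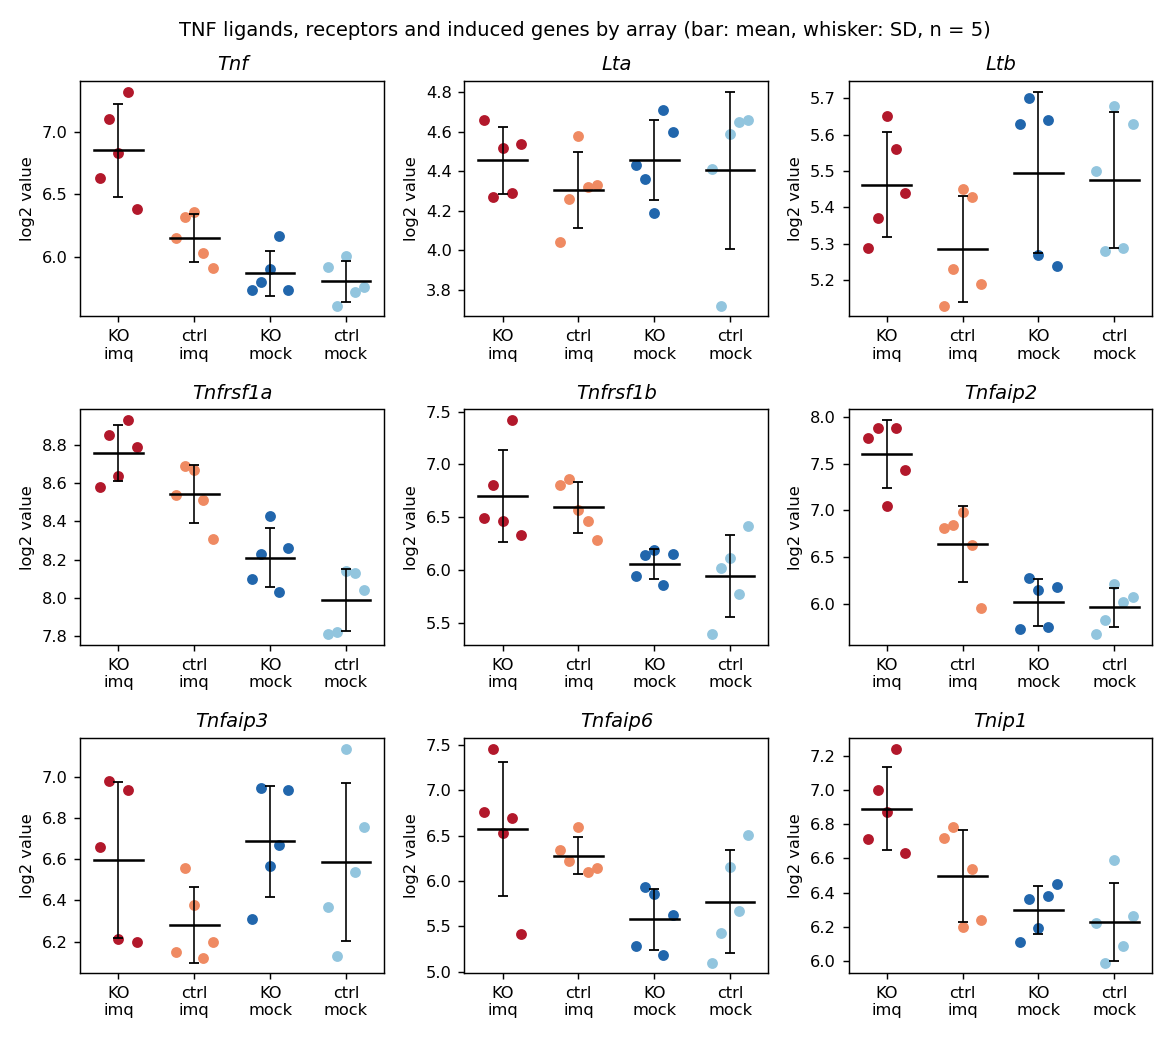
Log2 value of each member on each of the 20 arrays, with groups from left to right KO imiquimod, control imiquimod, KO mock and control mock; points are arrays, bars are means and whiskers are SD (n = 5), and each panel has its own range. Tnf and Tnfaip2 were highest in all 5 KO imiquimod arrays, both receptors separated by treatment more than by genotype, and Lta and Ltb overlapped between all groups.

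Tnf, the ligand that heads the pathway, was highest in KO skin under imiquimod. Its log2 values were 6.63, 7.10, 6.83, 7.32 and 6.38 in KO imiquimod skin and 6.15, 6.32, 6.36, 6.03 and 5.91 in control imiquimod skin. In mock skin they were 5.74, 5.80, 5.90, 6.17 and 5.74 in KO and 5.92, 5.61, 6.01, 5.72 and 5.76 in control animals. The 5 KO imiquimod arrays lay above all other arrays, control imiquimod arrays overlapped with both mock groups, and the mock groups overlapped with each other. Under imiquimod Tnf was 1.62-fold higher in KO than in control skin (0.70 ± 0.14 on the log2 scale, SE of 5 against 5 arrays, limma adjusted p = 0.0286), and an exact permutation test, two-sided, gave p = 0.00794, the lowest value open to 5 against 5 arrays. Groups of 5 without overlap always give this p, so it restates the separation above, which 2.47% of all genes shared. Imiquimod against mock gave 1.98-fold in KO skin (log2 difference 0.98 ± 0.14, SE, adjusted p = 5.79e-05, exact permutation p = 0.00794) and a log2 difference of 0.35 (adjusted p = 0.136, exact permutation p = 0.0238) in control skin. In mock skin Tnf did not pass between genotypes (log2 difference 0.07, 95% interval -0.24 to 0.37, adjusted p = 0.999, exact permutation p = 0.579). The order of the group means was therefore KO imiquimod (6.85 ± 0.37), control imiquimod (6.15 ± 0.19), KO mock (5.87 ± 0.18) and control mock (5.80 ± 0.16, SD, n = 5 each). The response to imiquimod was larger in KO than in control skin by 0.63 (95% interval 0.21 to 1.06, unadjusted p = 0.00579), which did not pass over all genes (adjusted p = 0.581).

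The call on Tnf between genotypes under imiquimod was close to the threshold. It was lost when control imiquimod replicate 1, 2, 4 or 5 was left out (adjusted p = 0.0712, 0.0586, 0.0814 and 0.0865) and without KO imiquimod replicate 2 or 4 (0.104 and 0.092). The KO imiquimod replicates 2 and 4 had the highest Tnf (7.10 and 7.32) and also the most Zfp36 signal of their group. Only the 10 arrays compared gave an adjusted p of 0.104, and leaving out the arrays most distant in hair markers gave 0.103, while over all 31 alternatives the difference stayed between 0.58 and 0.82.

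The lymphotoxins, which lymphocytes make and which share receptors with TNF (Lta) or signal as a complex through their own receptor (Ltb with Lta), passed in none of the comparisons. Lta ranged from 4.27 to 4.66 in KO imiquimod skin, 4.04 to 4.58 in control imiquimod skin, 4.19 to 4.71 in KO mock skin and 3.72 to 4.66 in control mock skin. Ltb ranged from 5.29 to 5.65, 5.13 to 5.45, 5.24 to 5.70 and 5.28 to 5.68 in the same groups. Under imiquimod the interval of the difference between KO and control skin ran from -0.17 to 0.47 for Lta and from -0.06 to 0.41 for Ltb, so that a rise as large as that of Tnf (0.70) lay outside both. The mean of Lta over all arrays lay at the 30.3 percentile of genes, where a probe set may be near background, and Ltb at the 49.8 percentile. Markers of lymphocytes are given beside them. The mean of 9 T cell markers was 5.03 to 5.24 in KO imiquimod skin, against 5.14 to 5.31 in control imiquimod skin, 5.31 to 5.69 in KO mock skin and 5.19 to 5.72 in control mock skin. With imiquimod 1 rose and 2 fell in KO skin (33.3%, beside 20.8% of all genes), and 1 rose in control skin (11.1%, beside 10.8%). B and plasma cell markers (9 genes) averaged 4.16, 4.10, 4.12 and 4.07 in the same groups. Natural killer and innate lymphoid markers (6 genes) averaged 4.19, 4.39, 4.28 and 4.21.

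Both TNF receptors rose with imiquimod, to nearly the same extent in either genotype. Tnfrsf1a, encoding the receptor that carries a death domain, had values of 8.58, 8.85, 8.64, 8.93 and 8.79 in KO imiquimod skin, against 8.10, 8.23, 8.43, 8.03 and 8.26 in KO mock skin. In control animals it had 8.54, 8.69, 8.67, 8.51 and 8.31 under imiquimod, against 7.81, 7.82, 8.14, 8.13 and 8.04 in mock skin. Imiquimod and mock arrays did not overlap in either genotype. The rise was 1.46-fold in KO skin (log2 difference 0.55 ± 0.10, adjusted p = 0.00049) and 1.47-fold in control skin (0.56 ± 0.10, SE of 5 against 5 arrays, adjusted p = 0.00075). The difference between the responses was -0.01, with a 95% interval from -0.30 to 0.29. Between genotypes Tnfrsf1a was 0.21 higher in KO than in control skin under imiquimod and 0.22 higher in mock skin, with unadjusted p = 0.0441 and 0.0374, and passed over all genes in neither (adjusted p = 0.477 and 0.999).

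Tnfrsf1b, the receptor of leukocytes and endothelium, ranged from 6.33 to 7.42 in KO imiquimod skin, against 5.86 to 6.19 in KO mock skin, and from 6.28 to 6.86 in control imiquimod skin, against 5.39 to 6.42 in control mock skin. The highest value, 7.42, was KO imiquimod replicate 4, and KO arrays did not overlap between treatments while control arrays did. Imiquimod raised it by 0.65 ± 0.19 in KO skin (adjusted p = 0.0188) and by 0.65 ± 0.19 in control skin (SE of 5 against 5 arrays, adjusted p = 0.0304). The difference between these responses was -0.01 with an interval from -0.57 to 0.55, and between genotypes it was 0.11 higher in KO skin under imiquimod (adjusted p = 0.929). The call in KO skin was lost without KO imiquimod replicate 4 (log2 difference 0.47, adjusted p = 0.0584) and with hair markers as a covariate (0.50, adjusted p = 0.0706). The call in control skin was lost with hair markers as a covariate (0.46, adjusted p = 0.2), with the replicate block (adjusted p = 0.0522), and without control mock replicate 1 or 4 (0.0935 and 0.0731) or control imiquimod replicate 1, 2 or 3 (0.0796, 0.0841 and 0.0595).

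Tnfaip2, encoding an exocyst-related protein that helps form thin membrane bridges between cells, had the largest estimate of the members in each comparison except KO against control in mock skin. It had values of 7.78, 7.89, 7.05, 7.88 and 7.43 in KO imiquimod skin, against 6.81, 6.84, 6.98, 6.63 and 5.95 in control imiquimod skin. In mock skin it lay between 5.73 and 6.27 in KO and between 5.67 and 6.21 in control animals. Every KO imiquimod array was above every control imiquimod array, the closest pair being 7.05 and 6.98. Under imiquimod it was 1.95-fold higher in KO than in control skin (0.96 ± 0.19 on the log2 scale, SE of 5 against 5 arrays, adjusted p = 0.02), and in mock skin it did not pass (log2 difference 0.06, adjusted p = 0.999). Imiquimod raised it 3.01-fold in KO skin (log2 difference 1.59 ± 0.19, adjusted p = 3.8e-06) and 1.61-fold in control skin (0.68 ± 0.19, SE of 5 against 5 arrays, adjusted p = 0.0213). The difference between the responses, 0.91 (95% interval 0.36 to 1.46, unadjusted p = 0.00261), did not pass over all genes (adjusted p = 0.503).

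The genotype call on Tnfaip2 under imiquimod was lost when control imiquimod replicate 4 was left out (adjusted p = 0.0533) and without KO imiquimod replicate 1, 2 or 4 (0.0569, 0.0769 and 0.0676), with only the 10 arrays compared (0.0842) and without the arrays most distant in hair markers (0.105). Its call in control skin was lost with hair markers as a covariate (0.50, adjusted p = 0.147) and without control mock replicate 1 or 2 (0.0617 and 0.0503) or control imiquimod replicate 1, 2 or 3 (0.056, 0.0598 and 0.0707).

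Tnfaip6, which encodes the hyaluronan-binding secreted protein TSG-6, rose with imiquimod in KO skin, with a wide spread. Its values were 6.76, 7.46, 6.53, 6.70 and 5.42 in KO imiquimod skin, against 5.28, 5.93, 5.86, 5.19 and 5.63 in KO mock skin. In KO imiquimod replicate 5 it stayed within the mock range, and the other 4 arrays lay above it. The rise was 1.99-fold (1.0 ± 0.29 on the log2 scale, SE of 5 against 5 arrays, adjusted p = 0.0173), and it was lost without KO imiquimod replicate 2 (log2 difference 0.77, adjusted p = 0.0619) and with hair markers as a covariate (0.79, adjusted p = 0.0601). In control skin it ranged from 6.10 to 6.60 under imiquimod, against 5.10 to 6.51 after mock treatment, and did not pass (log2 difference 0.51, adjusted p = 0.315). Between genotypes under imiquimod its estimate was 0.29, with an interval from -0.31 to 0.90.

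The brakes of the pathway behaved differently from each other. Tnfaip3 encodes A20, a ubiquitin-editing enzyme that shuts off NF-kB signalling, and Tnip1 encodes ABIN1, an adaptor that brings A20 to ubiquitin chains. Tnfaip3 passed in no comparison: its values were 6.66, 6.98, 6.21, 6.94 and 6.20 in KO imiquimod skin, 6.15, 6.56, 6.38, 6.12 and 6.20 in control imiquimod skin, and between 6.31 and 6.95 in KO mock and 6.13 and 7.14 in control mock skin. All groups overlapped, and the estimates for imiquimod were -0.09 in KO skin (95% interval -0.48 to 0.30) and -0.31 in control skin (-0.69 to 0.08). A rise of the size seen for Tnf in KO skin (0.98) lay outside the first of these intervals.

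Tnip1 ranged from 6.63 to 7.24 in KO imiquimod skin, against 6.11 to 6.45 in KO mock skin, with no overlap, and it rose 1.51-fold (0.59 ± 0.14 on the log2 scale, SE of 5 against 5 arrays, adjusted p = 0.00363). In control animals it ranged from 6.20 to 6.78 under imiquimod, against 5.99 to 6.59 after mock treatment (log2 difference 0.27, adjusted p = 0.247). Between genotypes under imiquimod it was 0.39 higher in KO skin, with an unadjusted p = 0.00895 that did not pass over all genes (adjusted p = 0.276).

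**Figure D2:**
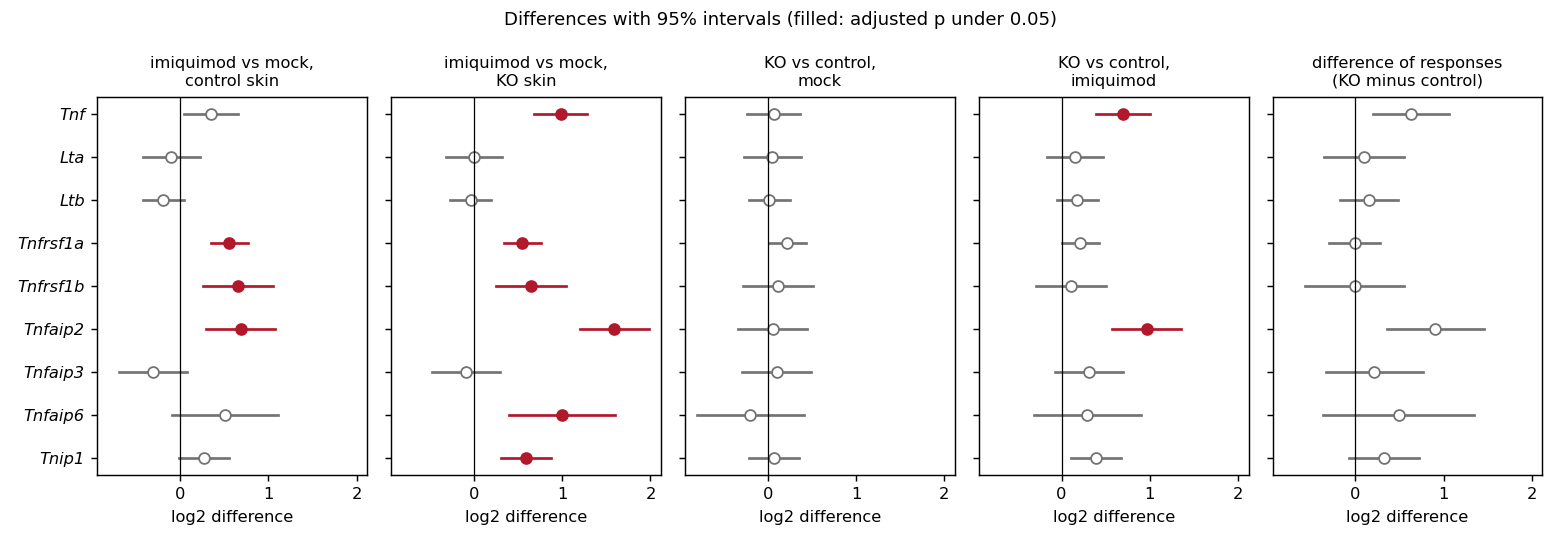
Log2 difference (x axis) of each member in the 5 comparisons, with lines for 95% intervals from limma and filled red points where the adjusted p was under 0.05. Tnf and Tnfaip2 were called between genotypes under imiquimod, no member was called in mock skin or for the difference of responses, and both receptors had intervals centred near 0 for that difference.

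Counted over the members, 2 of 9 were higher in KO than in control skin under imiquimod, 22.2%, beside 0.546% of all genes called in either direction (0.374% higher and 0.171% lower). These were Tnf and Tnfaip2, and they were also the 2 members whose arrays did not overlap between genotypes, beside 2.47% of all genes (1.3% higher and 1.17% lower). The other 7 did not pass, although all 9 estimates were above 0, from 0.11 (Tnfrsf1b) to 0.96 (Tnfaip2), with a median of 0.29 beside 0.01 over all genes. In mock skin 0 of 9 passed between genotypes in limma, beside 0.00902% of all genes, with 1 member (Tnfrsf1a) and 708 genes at an unadjusted p under 0.05. Imiquimod raised 6 of 9 members in KO skin (66.7%, beside 20.8% of all genes called, 11.1% higher and 9.71% lower) and 3 of 9 in control skin (33.3%, beside 10.8%, 6.47% higher and 4.37% lower), and lowered none in limma. Imiquimod and mock arrays did not overlap for 5 members in KO skin, all higher, beside 13.7% of all genes (7.16% higher), and for 1 member in control skin, Tnfrsf1a, beside 8.35% (5.6% higher and 2.74% lower). The member median was 0.59 in KO and 0.35 in control skin, beside 0.00 over all genes in both. The responses of the genotypes differed for 0 of 9 members, beside 0.018% of all genes, with Tnf and Tnfaip2 at an unadjusted p under 0.05 together with 1497 of all genes. Both genotype comparisons and both treatment comparisons share groups, so their counts are not independent. Members were chosen with earlier results of these data known, so their shares beside those of all genes are descriptions, not tests.

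These counts moved with the arrays and settings used. Under imiquimod, 0 members passed between genotypes when only the 10 arrays compared entered the fit (Tnf adjusted p = 0.104, Tnfaip2 adjusted p = 0.0842) and also 0 when, in every group, the 1 array most distant in hair follicle markers was dropped (0.103 and 0.105). Of all genes, 17 passed in the first of these fits and 54 in the other, against 121 without these changes. With the hair markers as a covariate, imiquimod raised 4 members in KO skin, with Tnfrsf1b and Tnfaip6 lost, and 1 member in control skin, Tnfrsf1a.

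Around these members, 113 of 119 further genes of the TNF pathway and family were measured, in 6 lists. The lists were chosen with earlier results of these data known, so their shares beside those of all genes are descriptions, not tests. Under imiquimod 5 of them were higher and 0 lower in KO than in control skin (4.42%, beside 0.546% of all genes). In response to imiquimod 33 rose and 9 fell in KO skin (37.2%, beside 20.8%) and 19 rose and 8 fell in control skin (23.9%, beside 10.8%). In mock skin 0 of 113 passed between genotypes in limma, beside 0.00902% of all genes. At an unadjusted p under 0.05 were 10 of 113, beside 708 of all 22180 genes. The lists include the deleted gene Zfp36, which is among these 10 (log2 difference -2.03 in KO against control mock skin). The 5 called between genotypes under imiquimod became 0 with only the 10 arrays compared, 3 with the replicate block, 2 without the arrays most distant in hair markers, 8 with array weights and 10 with hair markers as a covariate, all higher in KO skin. They became 3 without KO imiquimod replicate 1 or 2 or control imiquimod replicate 1, 2 or 5, and 8 without KO imiquimod replicate 3 or 5. With hair markers as a covariate 13 of the 113 rose and 5 fell in control skin. All genes called between genotypes under imiquimod, 121 without these changes, numbered 17 with only the 10 arrays compared and 78 with the replicate block. They numbered 54 without the arrays most distant in hair markers, 242 with array weights and 335 with hair markers as a covariate.

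Timp3, the inhibitor of the TNF-releasing protease ADAM17, fell to 8.26 in KO imiquimod skin, against 9.78 in KO mock skin (-1.51 ± 0.14 on the log2 scale, SE of 5 against 5 arrays, adjusted p = 2.48e-07). It fell to 8.65 in control imiquimod skin, against 9.45 in control mock skin (log2 difference -0.79 ± 0.14, adjusted p = 0.00075). The difference between these responses was -0.72 and did not pass (adjusted p = 0.476). Adam17 itself rose by 0.48 in KO skin (adjusted p = 0.00729), and its estimate in control skin was 0.34 (adjusted p = 0.0815). In KO skin there also rose Ltbr, the lymphotoxin beta receptor, by 0.32 (adjusted p = 0.0134) and Tnfsf14, encoding LIGHT, another ligand of that receptor, by 0.30 (adjusted p = 0.0475). Of the 7 genes of TNF release and lymphotoxin reception 3 rose and 1 fell in KO skin (57.1%, beside 20.8% of all genes), and 1 (Timp3) fell in control skin (14.3%, beside 10.8%). With hair markers as a covariate 1 rose and 1 fell in KO skin. In control skin 2 of these genes were called with array weights or without control mock replicate 5, and 3 without control imiquimod replicate 5 or without the arrays most distant in hair markers.

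Among 24 measured genes of the receptor signalling complexes, 5 rose and 2 fell with imiquimod in KO skin (29.2%, beside 20.8% of all genes), and 5 rose in control skin (20.8%, beside 10.8%), where 6 rose and 2 fell without the arrays most distant in hair markers. Those that rose were the same in both: Birc3, a ubiquitin ligase bound to the receptors, Casp8, which starts death-receptor apoptosis, Map3k8, the kinase that leads to ERK, and Ripk3 and Mlkl, the kinase and the membrane-breaking effector of necroptosis. Mlkl averaged 6.97 in KO imiquimod skin, against 6.23 in control imiquimod skin, and was the 1 gene of this list called between genotypes (0.74 ± 0.13 on the log2 scale, SE of 5 against 5 arrays, adjusted p = 0.0117). That call was lost when only the 10 arrays compared entered the fit. Ripk3 rose by 0.94 in KO skin (adjusted p = 2.62e-05) and by 0.58 in control skin (adjusted p = 0.00525). In KO skin Traf5, an adaptor of TNF-family receptors, fell by 0.74 (adjusted p = 9.59e-05) and Tab2, a subunit of the TAK1 kinase complex, by 0.33 (adjusted p = 0.00471). The list median was 0.01 in KO and -0.01 in control skin, close to that of all genes.

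Of 19 brakes on TNF signalling, which include inhibitors of NF-kB and proteins that destroy inflammatory messengers, 7 rose and 2 fell with imiquimod in KO skin (47.4%, beside 20.8% of all genes) and 4 rose and 3 fell in control skin (36.8%, beside 10.8%). In control skin 3 rose and 1 fell with hair markers as a covariate, and likewise without control mock replicate 1 or 2 or control imiquimod replicate 1 or 3. Zc3h12a, encoding the RNA-cutting enzyme Regnase-1, rose 2.75-fold in KO skin (adjusted p = 4.53e-07) and 2.57-fold in control skin (adjusted p = 1.67e-06). Rnf11, a partner of the A20 complex, rose by 0.57 in KO skin (adjusted p = 0.000363) and by 0.59 in control skin (adjusted p = 0.000497). Socs3, an inhibitor of cytokine receptor signalling, rose by 0.98 in KO skin (adjusted p = 0.00037), and Otulin, which removes linear ubiquitin chains, by 0.46 (adjusted p = 0.00205). Rc3h1, encoding the messenger-decay protein Roquin-1, fell by 0.45 in KO skin (adjusted p = 0.00161) and by 0.49 in control skin (adjusted p = 0.00133). Between genotypes under imiquimod 0 of 19 passed in limma, and 1 passed with hair markers as a covariate or without KO imiquimod replicate 5. At an unadjusted limma p under 0.05 were 5 of 19, beside 2218 of all 22180 genes. The list holds Zfp36 itself, the deleted gene, which is among these 5 and was lower in KO skin (log2 difference -1.60). Socs3, Zfp36l1, Zc3h12a and Nfkbie were higher.

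The list with the largest share of rises was that of other genes inducible by TNF, most of which other cytokines induce as well: 17 of 31 rose and 1 fell with imiquimod in KO skin (58.1%, beside 20.8% of all genes), and 8 rose and 1 fell in control skin (29%, beside 10.8%). Bcl3, an NF-kB cofactor, rose 2.35-fold in KO skin (adjusted p = 1.69e-07) and 1.54-fold in control skin (adjusted p = 0.000797), and Ccl20, which attracts cells bearing CCR6, rose 2.18-fold in KO skin (adjusted p = 3.24e-06) and 3.13-fold in control skin (adjusted p = 3.2e-08). The gene that fell in both was Tnfaip8, an apoptosis regulator, by 0.42 in KO skin (adjusted p = 0.00378) and by 0.42 in control skin (adjusted p = 0.00705). Under imiquimod 4 of 31 were higher in KO than in control skin: the cytokine gene Il1b (7.1-fold, adjusted p = 0.00186), Sod2, the mitochondrial superoxide dismutase (1.43-fold, adjusted p = 0.0117), Bcl3 (1.46-fold, adjusted p = 0.0273) and Saa3, an acute-phase gene (5.11-fold, adjusted p = 0.0323). These 4 are 12.9% of the list, beside 0.546% of all genes, and the list median was 0.50, beside 0.01. The count became 0 with only the 10 arrays compared, 1 without the arrays most distant in hair markers, 2 with the replicate block, 7 with array weights and 8 with hair markers as a covariate. It became 2 without KO imiquimod replicate 1 or 2 or control imiquimod replicate 1, 2 or 5, and 7 without KO imiquimod replicate 3. The number of all genes called moved as well. From 121 it became 17 with only the 10 arrays compared, 54 without the arrays most distant in hair markers and 78 with the replicate block. With array weights it was 242, with hair markers as a covariate 335, and with 1 array left out 45 to 174.

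**Figure D3:**
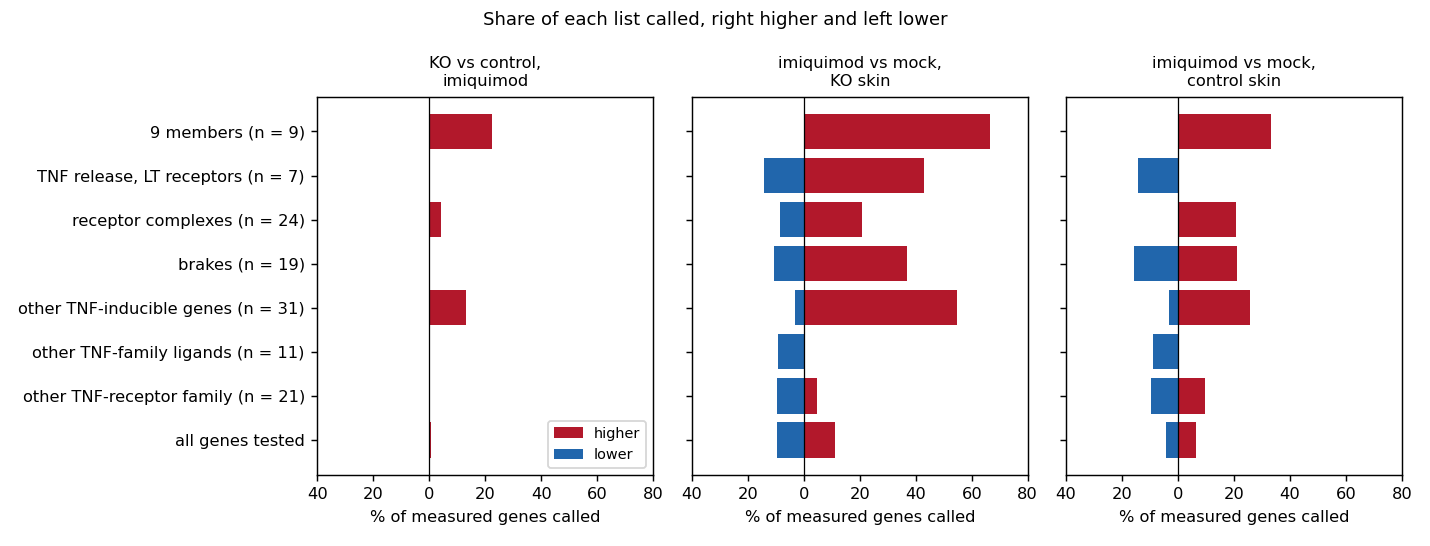
Percent of the measured genes of each list called higher (right, red) and lower (left, blue) for KO against control under imiquimod, imiquimod against mock in KO skin and imiquimod against mock in control skin, with all 22180 genes in the bottom row. For imiquimod against mock in KO skin, the 9 members and the other TNF-inducible genes had the largest shares higher, 6 of 9 and 17 of 31.

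Markers of other cells moved with some of these genes. The mean log2 value of 11 neutrophil markers ranged from 5.16 to 6.18 in KO imiquimod skin, against 4.61 to 5.06 in control imiquimod skin, 4.21 to 4.36 in KO mock skin and 4.01 to 4.24 in control mock skin. In this mean the imiquimod groups did not overlap with each other or with mock skin, but the markers did not move alike. Stfa2l1 averaged 9.67 in KO imiquimod and 8.68 in control imiquimod skin, against 4.16 in KO mock and 4.06 in control mock skin. Camp averaged 3.36, 3.37, 3.23 and 3.38 in the same groups. Of these 11 markers 5 rose with imiquimod in KO skin (45.5%, beside 20.8% of all genes) and 2 in control skin (18.2%, beside 10.8%). Between genotypes under imiquimod 0 passed in limma, with 6 at an unadjusted p under 0.05, beside 2218 of all 22180 genes. Among the defining markers, the chemokine receptor Cxcr2 averaged 7.76 in KO imiquimod skin, against 7.22 in control imiquimod, 5.29 in KO mock and 5.19 in control mock skin, whereas Ly6g averaged 3.56, against 3.09, 3.15 and 3.33. The array highest in neutrophil markers (6.18), KO imiquimod replicate 4, was also the highest in Tnf and in Tnfrsf1b. Over deviations from the 4 group means on 20 arrays, Pearson r with the neutrophil markers was 0.55 for Tnf, 0.46 for Tnfaip2 and 0.67 for Tnfrsf1b, a description over arrays that share their normalization. Other marker lists had r values as high: for Tnfaip2 it was 0.58 with keratinocyte, 0.54 with monocyte and macrophage and 0.50 with dendritic cell markers, and for Tnfrsf1b 0.66 with monocyte and macrophage and 0.65 with mast cell markers. For Tnf the next was mast cell markers at 0.45. The part of neutrophils in the rise of Tnf and Tnfaip2 was not tested.

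Monocyte and macrophage markers (15 genes) averaged 7.50 in KO imiquimod skin, 7.53 in control imiquimod skin, 7.23 in KO mock skin and 7.04 in control mock skin. Of these, 0 of 15 passed between genotypes under imiquimod in limma, with 1 at an unadjusted p under 0.05, beside 2218 of all 22180 genes. With imiquimod 3 of them rose and 1 fell in KO skin (26.7%, beside 20.8% of all genes). In control skin 4 rose and 1 fell (33.3%, beside 10.8%). In KO skin Adgre1 averaged 7.87 under imiquimod, against 6.70 after mock treatment, whereas Mertk averaged 6.56, against 7.30. Keratinocyte markers (7 genes) averaged 11.3 in KO imiquimod skin, against 11.2 in control imiquimod skin, 10.7 in KO mock skin and 10.5 in control mock skin. Of these 7, 3 rose and 0 fell with imiquimod in each genotype (42.9%, beside 20.8% of all genes in KO and 10.8% in control skin). In KO skin Krt1 averaged 12.21 under imiquimod, against 10.28 after mock treatment, whereas Trp63 averaged 8.90, against 9.02. Skeletal muscle markers (12 genes) averaged 8.09 in KO imiquimod skin, against 8.93 in control imiquimod skin, 8.86 in KO mock skin and 8.84 in control mock skin. After imiquimod 7 of 12 were lower and 1 higher in KO skin (66.7%, beside 20.8% of all genes). Under imiquimod 1 of 12 was lower in KO than in control skin (8.33%, beside 0.546% of all genes), and the list median was -0.77. At an unadjusted limma p under 0.05 were 10 of the 12, beside 2218 of all 22180 genes. The part of these compartments in the member values was not tested.

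**Figure D4:**
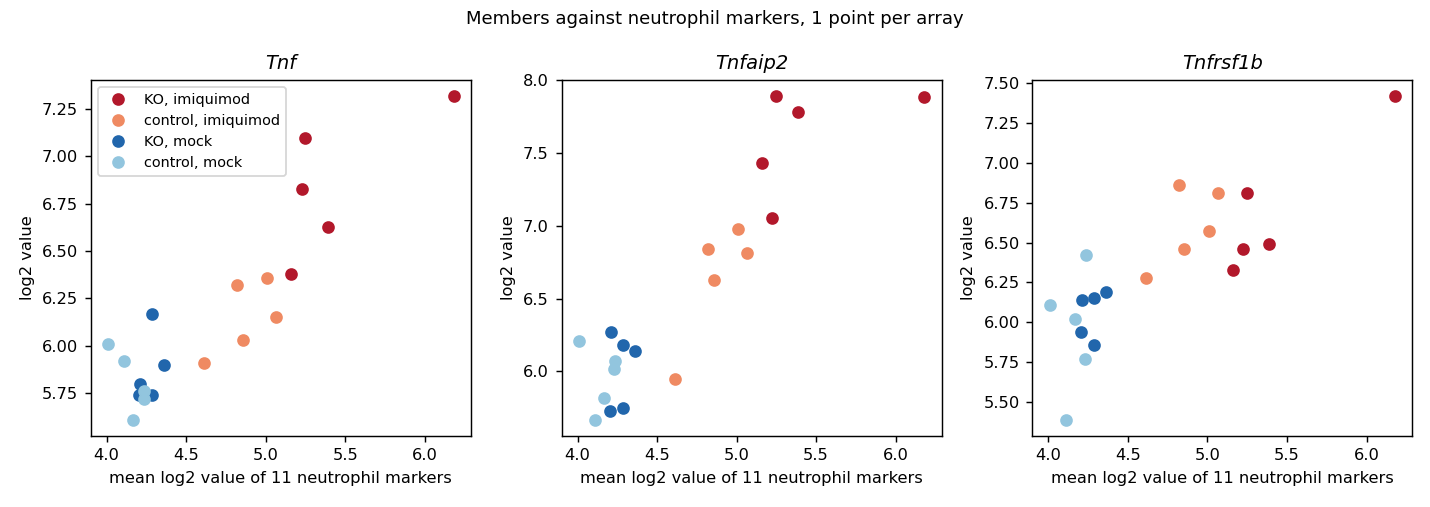
Log2 value of Tnf, Tnfaip2 and Tnfrsf1b (y axes) against the mean log2 value of 11 neutrophil markers (x axis), 1 point per array, coloured by group. The 5 KO imiquimod arrays lie farthest right, between 5.16 and 6.18, and KO imiquimod replicate 4 is highest on both axes for Tnf and Tnfrsf1b.

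Members differed in how they varied together. The 6 members called in KO skin (Tnf, both receptors, Tnfaip2, Tnfaip6 and Tnip1) had a Pearson r between 0.64 and 0.90 for their 15 pairs over the 20 arrays, to which the differences between groups contribute. Over deviations from group means, r for these pairs was 0.35 to 0.74, highest for Tnfrsf1a with Tnfaip2. Tnfaip3 had an r of only 0.05 to 0.31 with these 6 over the log2 values but 0.56 to 0.69 over the deviations, so within groups it varied with them while its group means did not follow theirs. Pairs with Lta or Ltb stayed between -0.25 and 0.37 over the deviations, although Lta and Ltb lie next to Tnf. These r values are descriptions over 20 arrays of 4 groups, and arrays share normalization and tissue make-up.

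**Figure D5:**
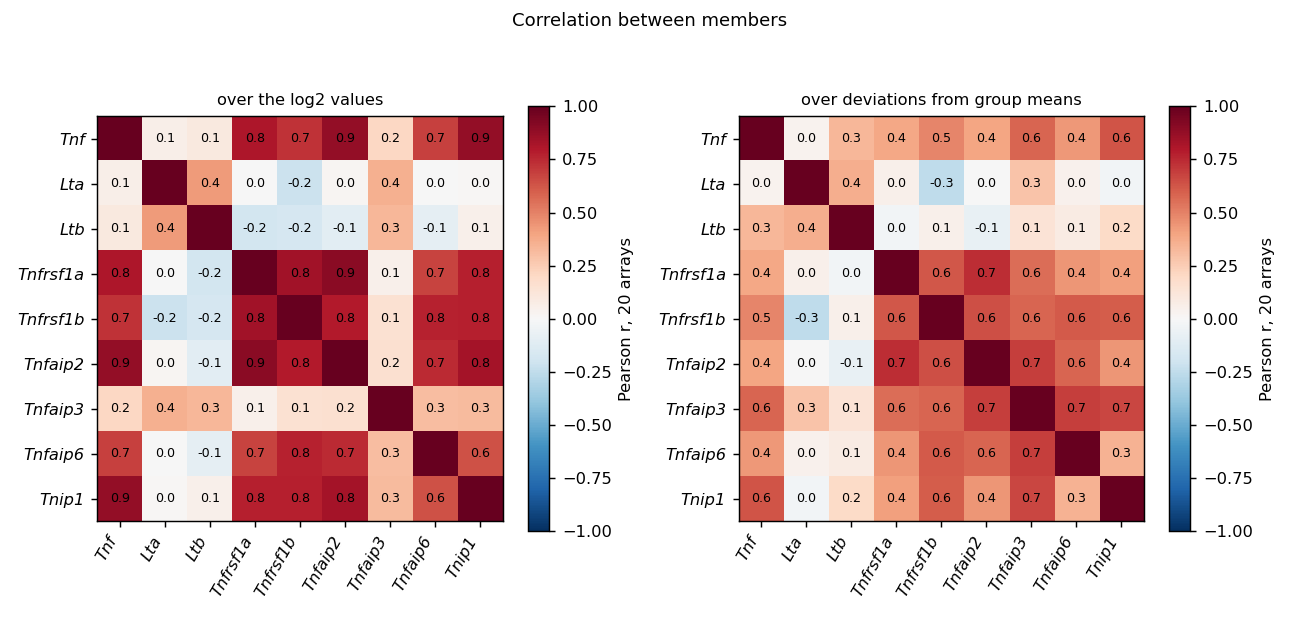
Pearson r between members over 20 arrays, left over the log2 values and right over deviations from the 4 group means, from -1 (blue) to 1 (red). Tnfaip3 is pale beside the 6 called members on the left and red on the right, and Lta and Ltb are pale on both sides.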

How the data were processed

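Skin RNA from 20 mice was hybridised to Affymetrix arrays, with 200 ng total RNA labelled by the WT PLUS protocol, per the labels. The authors deposited 1 table of log2 values for 41345 probe sets (1.41 to 13.33). The base of 2 was read from the values, so folds rest on it. The labels name no summarisation, normalization or software, and detection calls were not used.

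Probe sets with a single platform symbol (23521) were kept, updated through Entrez identifiers (0 changed), with the brightest per gene. limma 3.58.1 in R 4.3.3 (lmFit, eBayes, 1 mean per group, 16 residual degrees of freedom) tested 5 contrasts, two-sided, with Benjamini-Hochberg adjustment. Animals were separate, per the series design, and the number of arrays limited the precision (median SE 0.11). The fit was checked on simulated data. Alternatives were other samples, blocks, priors, weights, normalizations, probe set rules, a filter on dim genes and hair markers as a covariate or to leave out arrays, and each array in turn.

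Members and lists were chosen with earlier results of these data known. Named were the 9 members, Zfp36, per list and contrast up to 4 genes past the threshold in each direction by smallest p, the 3 genes most correlated with a member, and defining markers. Of these the text gives a part. Motif windows were the 250 bases before each start.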

Additional observations from a re-analysis of the deposited data

Results flagged for a closer look

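In Lta, control mock replicate 2 lay at a log2 value of 3.72, below the other 4 arrays of its group, the nearest of which was at 4.41. Its gap to that array took up more of the group's range than Dixon's critical value of 0.71 allows. Among the 36 combinations of member and group examined it was the 1 such array, where chance gives about 1 in 20. Without it the KO estimate for Lta in mock skin changed sign, with no call in either case.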

How the results depend on the processing

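Over 11 alternatives and 20 arrays left out in turn, directions of called members held, and calls near the threshold did not. Of 486 values of members under the 11 alternatives, 465 kept direction and side of the threshold, 9 lost a call and 12 changed sign; of 900 values with 1 array left out these were 838, 22 and 40. The cause of these changes was not tested. The members called between genotypes under imiquimod fell to 0 of 9, against 2, with only the groups compared and without the arrays farthest in hair markers, and ranged from 0 to 2 with 1 array left out. Imiquimod in control skin called 1 member with the hair covariate, against 3, and 1 to 3 with 1 array left out. Counts of the gene lists moved as given beside them. Hair as a covariate also ended the calls of Tnfrsf1b and Tnfaip2 in control skin (adjusted p = 0.2 and 0.147) and of Tnfrsf1b and Tnfaip6 in KO skin (0.0706 and 0.0601). Genes called between genotypes under imiquimod numbered 121, against 17 with only the groups compared, 242 with array weights, 335 with the hair covariate, 54 without the hair arrays and 45 to 174 with 1 array left out; in mock skin 2, against 0, 4, 5 and 1 under the same settings, 1 with median centring and 0 to 4 with 1 left out. Imiquimod in control skin called 2404 genes, and 3697 with array weights; the difference of responses 4, against 8 with array weights, 12 with the hair covariate and 4 to 8 with 1 left out.

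Sign changes concerned estimates near 0. In KO skin with imiquimod Lta became 0.0217, 0.034 and 0.00933 and Ltb 0.00805 and 0.002 under quantile normalization, median centring and, for Lta, the hair covariate. For the difference of responses Tnfrsf1a became 0.0226 (array weights), 0.004 (median centring), 0.0286 (hair covariate) and 0.02 (without hair arrays), Tnfrsf1b 0.004 (median centring) and 0.0421 (hair covariate), and Lta -0.0775 (without hair arrays). With 1 array left out, estimates that crossed 0 ranged, for imiquimod in KO skin, from -0.069 to 0.061 (Lta), -0.098 to 0.017 (Ltb) and -0.1855 to 0.0095 (Tnfaip3). Between genotypes in mock skin they ranged from -0.009 to 0.1175 (Tnf), -0.1195 to 0.119 (Lta), -0.031 to 0.084 (Ltb), -0.024 to 0.2335 (Tnfrsf1b), -0.016 to 0.127 (Tnfaip2) and -0.0145 to 0.238 (Tnfaip3), and under imiquimod from -0.0735 to 0.199 (Tnfrsf1b). For the difference of responses they ranged from -0.0665 to 0.047 (Tnfrsf1a) and -0.1875 to 0.13 (Tnfrsf1b). The fit on only the groups compared was not run for the difference of responses, which uses all groups.

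The replicate numbers were used as a block although nothing ties them to shared animals: same-numbered arrays correlated between -0.71 and 0.52 over genes, over 0.1 in 14 of 30 pairs, and matched best in 6 of 30. The replicate block called 78 genes between genotypes under imiquimod and ended 1 member call, Tnfrsf1b in control skin (adjusted p = 0.0522).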

Other observations

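Of 21 measured receptors of the family other than Tnfrsf1a and Tnfrsf1b, 1 rose and 2 fell with imiquimod in KO skin, and 2 rose and 2 fell in control skin (14.3% and 19%, beside 20.8% and 10.8% of all genes). Tnfrsf12a, encoding the TWEAK receptor Fn14, rose by 0.55 in KO skin (adjusted p = 0.00283) and by 0.41 in control skin (adjusted p = 0.0368). Tnfrsf11b, encoding the decoy receptor osteoprotegerin, fell by 0.75 in KO skin (adjusted p = 0.000101) and by 0.58 in control skin (adjusted p = 0.00216), and Tnfrsf19, a receptor known from hair follicle stem cells, fell by 1.15 (adjusted p = 0.000397) and by 0.78 (adjusted p = 0.0162). Of 11 further ligands 1 fell in each genotype (9.09% in both, beside 20.8% of all genes in KO and 10.8% in control skin). These were Tnfsf13b, encoding the B cell factor BAFF, in KO skin (log2 difference -0.43, adjusted p = 0.00451) and Tnfsf15 in control skin (-0.37, adjusted p = 0.0346). The ligand count in control skin was 0 with only the groups compared, with median centring, with hair markers as a covariate, and without control mock replicate 1, 2 or 3 or control imiquimod replicate 1, 3 or 4. In KO skin 3 ligands fell with the hair covariate and 2 without KO mock replicate 1. The receptors called in KO skin numbered 5 with array weights and without KO mock replicate 3 or KO imiquimod replicate 1, and 6 without the arrays most distant in hair markers. In control skin 2 receptors were called, both lower, with the hair covariate.

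Genes whose log2 values ran most like those of Tnf over the 20 arrays were Ms4a6d (r = 0.95), Clec4n (r = 0.95) and Socs3 (r = 0.94). For Tnfaip2 they were Stom (r = 0.98), Sbno2 (r = 0.96) and Klf7 (r = 0.96), and Stom was also the nearest by deviations from group means (r = 0.89). For Tnfrsf1b they were Efhd2 (r = 0.94), Ptpn6 (r = 0.93) and Ncf4 (r = 0.93). These were picked as the highest among all genes, so the r values are descriptions of 20 arrays in 4 groups.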
